A study of Mus musculus with 36 samples.

Results

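The replication-dependent histone genes were followed through osteoclast differentiation of mouse bone marrow-derived macrophages (BMMs). All rows of the RPKM table whose name begins with Hist1h, Hist2h, Hist3h or Hist4h were taken, 69 of 24950. They comprise 6 linker histone H1 genes, 19 H2A, 19 H2B, 12 H3 and 13 H4 genes, 55 of them in the Hist1 cluster, 10 in Hist2, 3 in Hist3 and 1 in Hist4. RNA of C57BL/6 BMMs was sequenced on day 0 (cultured with M-CSF), day 3 (M-CSF with RANKL, called preOCs, that is pre-osteoclasts) and day 6 (M-CSF with RANKL, called OCs, that is osteoclasts). For days 3 and 6 the doses were 20 ng/ml for M-CSF and 40 ng/ml for RANKL. Each day has 4 labelled Irf8 genotypes, Irf8 gWT, gKO, cWT and cKO, and 3 libraries per genotype and day, 36 in all. The labels do not spell out g and c, name no Cre driver or deleted exon, state that both sexes were used, and do not tell if the 3 libraries per group are from different mice or cultures. Each p-value thus gauges the spread among these libraries alone, which could be technical.

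Replication-dependent histone genes supply the bulk of the core and linker histones with which newly copied DNA is packed, and most of their mRNA is made during S phase. As a rule, their mRNAs have no introns and no poly(A) tail: they end just after a conserved stem-loop that is bound by SLBP and cut with the help of the U7 snRNP. Some cluster genes also have a longer transcript with an ordinary poly(A) tail, which has been described in cells that leave the cell cycle and differentiate. Replacement variants such as H3.3 and H2A.Z come from genes outside the clusters, with introns and poly(A) tails, and are made throughout the cell cycle.

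The stem-loops are shown as the point from which the annotated 3′ ends of most members were measured. Both kinds of end described below, short and long, can follow a stem-loop. In the GENCODE M21 annotation of the GRCm38 build, 67 members had a coding transcript, and 45 of these carried a stem-loop within 100 bases after the stop codon. Across all 21877 annotated coding genes 48 did (0.219%), of which 2 were no cluster members. Below, capitals mark the paired stem and lower case the 4-base loop, written as DNA from 5′ to 3′.
Hist1h1c: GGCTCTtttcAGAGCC
Hist1h2ao: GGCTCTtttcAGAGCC
Hist2h2ac: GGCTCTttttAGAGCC
Hist1h3c: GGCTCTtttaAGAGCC
Hist1h4h: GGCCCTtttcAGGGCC
Hist1h4i: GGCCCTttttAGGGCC
Hist1h1c and Hist1h2ao have the same sequence, which 25 members share, and the sequence of Hist1h4h recurs in 7. There were 8 different stem-loops in all. Members were grouped by the annotated transcript: 22 had a short end, which stops at most 100 bases after the stem-loop, 28 a long end, and 17 an annotation too short to hold a complete end. A poly(A) signal (AATAAA or ATTAAA) was found in 21 of the 28 long ends and 1 of the 22 short ends. It was searched for anywhere after the stem-loop, or anywhere after the stop codon where no stem-loop was found. The stretch searched is longer in long ends by definition, so length alone favours a match there. The annotated transcript went on for 840 bases after the stem-loop in Hist1h1c and 1643 in Hist3h2a, against 35 in Hist2h2aa1, 31 in Hist1h2ao and 3 in Hist1h2ap. The annotated long transcripts of Hist1h2bc and Hist2h2be had no stem-loop in that window. That of Hist1h2bc had 2 exons. Whether the libraries were made from poly(A)-selected or ribosome-depleted RNA, and with which strand, is not given in the sources used here, and RPKM per gene does not separate the 2 ends of one gene.

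Before the results, the libraries were checked. Irf8 itself was not lower in every group labelled knockout: its mean was 63.6 RPKM in day 0 libraries labelled gWT and 57.4 in those labelled gKO, 59 and 209.95 in those labelled cWT and cKO, and at day 6 26.3 and 11.2 in cWT and cKO. A gene-level value can also count RNA outside a deleted exon, so gKO and cKO stand for libraries labelled so throughout. The 7 osteoclast markers summed to 21822 to 22897 RPKM in gWT OCs, and in preOCs to 4145 in gWT, 22709 in gKO, 5628 in cWT and 16842 in cKO. The day 0 knockout-labelled libraries held far more of the 9 neutrophil markers, 23776 RPKM in gKO and 22279 in cKO against 2142 in gWT and 3363 in cWT, and less of the 6 macrophage markers in the table, 585 and 737 against 2141 and 1523. In these bulk samples fewer cells of a type and less RNA per cell cannot be told apart. Column names carry a data set letter that no source explains: all g libraries share one letter, while cWT at days 0 and 3 and cKO at day 6 have the letter s, cKO at days 0 and 3 have t, and the 3 cWT libraries at day 6 have t, t and s. In the c libraries, genotype and data set therefore cannot be told apart at days 0 and 3.

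Few of the 69 members carried most of the RPKM summed over them. A mean of at least 1 RPKM in some group was reached by 35 members, of at least 10 by 13 and of at least 50 by 6. These 6 were Hist1h2ao, Hist1h2bc, Hist1h1c, Hist1h2ap, Hist2h2aa1 and Hist3h2a, of which 4 are H2A genes, 1 is an H2B gene and Hist1h1c encodes the linker histone H1.2. On the low side, 26 members were under 1 RPKM in every library, among them the H1 gene Hist1h1a and the testis-specific H1 gene Hist1h1t, and Hist4h4, the sole Hist4 member, whose highest group mean was 0.206 RPKM. At 1 RPKM a library held 34.5 to 92.5 reads per kilobase. The filter of at least 1 RPKM in at least 3 libraries left 37 members for tests: 4 H1, 12 H2A, 9 H2B, 6 H3 and 6 H4. The other 32 members had highest group means of 0.0405 to 0.939 RPKM.

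Near-identical copies limit what a single member's value means. Of 59 members with an equally long relative in the clusters, 47 differed from one by at most 10 coding bases and 10 were identical to one, the pairs being Hist1h2ao with Hist1h2ap, Hist2h2aa1 with Hist2h2aa2, Hist2h3c1 with Hist2h3c2, Hist1h4m with Hist1h4n, and Hist1h2bq with Hist1h2br. Hist1h2bq and Hist1h2br had the same value in every library. Of the 2484 member values, 268 lay above 0 but under 0.001 RPKM, where 1 read per kilobase is worth 0.0108 to 0.0290 RPKM, so the deposited values hold fractions of reads. How reads that match several genes were shared out is not given in the sources used here, and values of single copies within these pairs are uncertain for that reason.

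**Figure D1:**
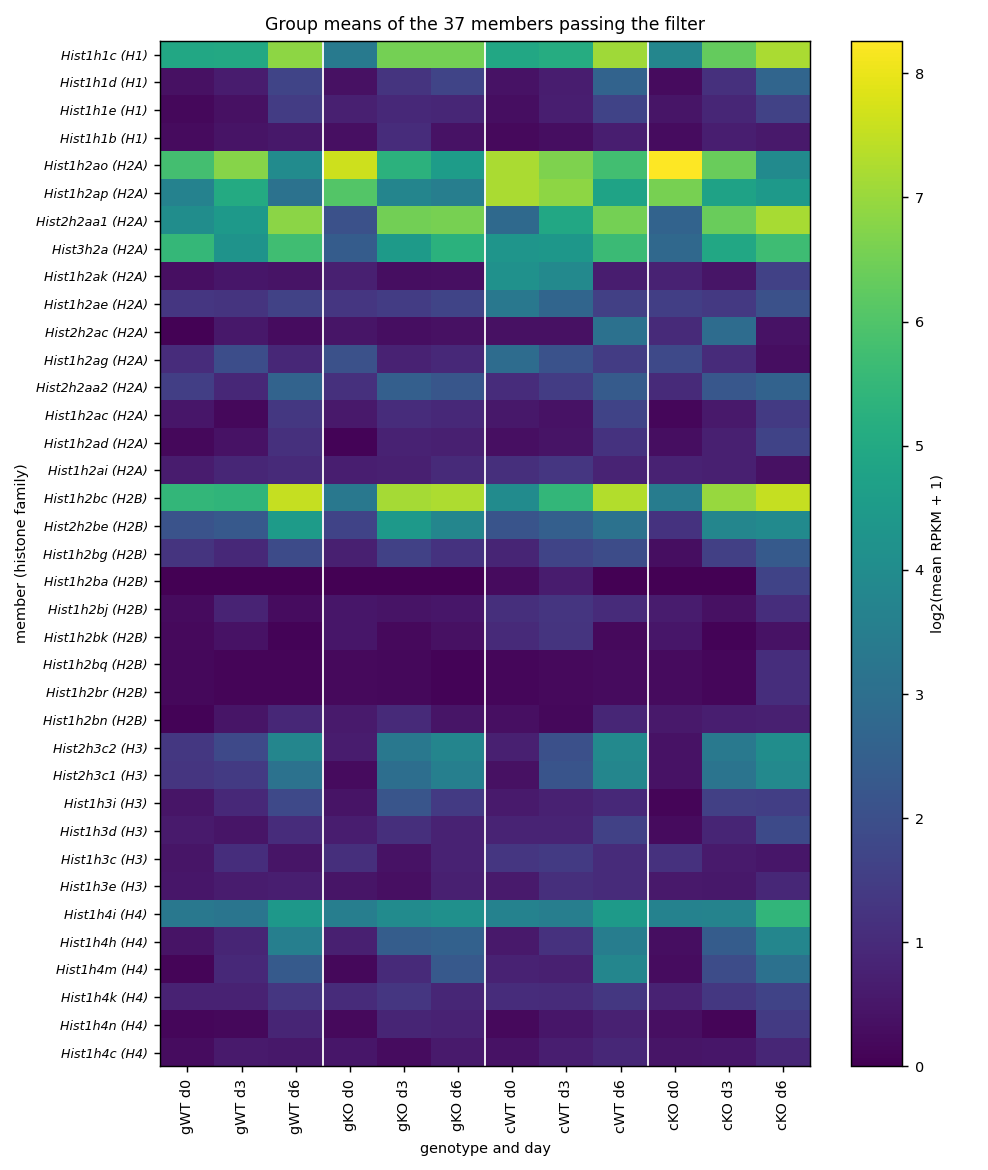
Group means of the 37 histone members that passed the filter, as log2(mean RPKM + 1) by colour, with genotype and day on the horizontal axis and members grouped by histone family on the vertical axis (n = 3 libraries per group). Hist1h1c, Hist2h2aa1, Hist3h2a and Hist1h2bc are darkest in the day 0 gKO and cKO columns, whereas Hist1h2ao is brightest in gKO, cWT and cKO at day 0 and Hist1h2ap in cWT at days 0 and 3 (146 and 115 RPKM).

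Summed histone RNA and its make-up changed in different ways. Over all 69 members the sum was 229.9 ± 19 RPKM (SD, n = 3) in gWT BMMs, 289.9 ± 14.4 in preOCs and 601 ± 22.3 in OCs. Hist1h2ao and Hist1h2ap, with identical coding sequences, made up 29.1% ± 2.29 of that sum in gWT BMMs, 47.8% ± 3.8 in preOCs and 3.78% ± 1.01 in OCs. In gKO the same share was 80.3% ± 0.556, 10.6% ± 1.01 and 6.61% ± 2.06. The pair thus held most of the RPKM summed over the cluster members in gKO BMMs and little of it in OCs of either genotype. Replacement variants are not part of this sum. In cKO BMMs its share was 85.1% ± 2.23 and in cWT BMMs 67.4% ± 2.5. The 67 other members summed to 163 ± 16.9, 152 ± 17.4 and 579 ± 26.4 RPKM in gWT at days 0, 3 and 6, and to 64.2 ± 2.82, 430.4 ± 15.7 and 465 ± 20.8 in gKO. The 3 libraries of gKO at day 3 were all above those of gWT at day 3, and those at day 0 all below.

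**Figure D2:**
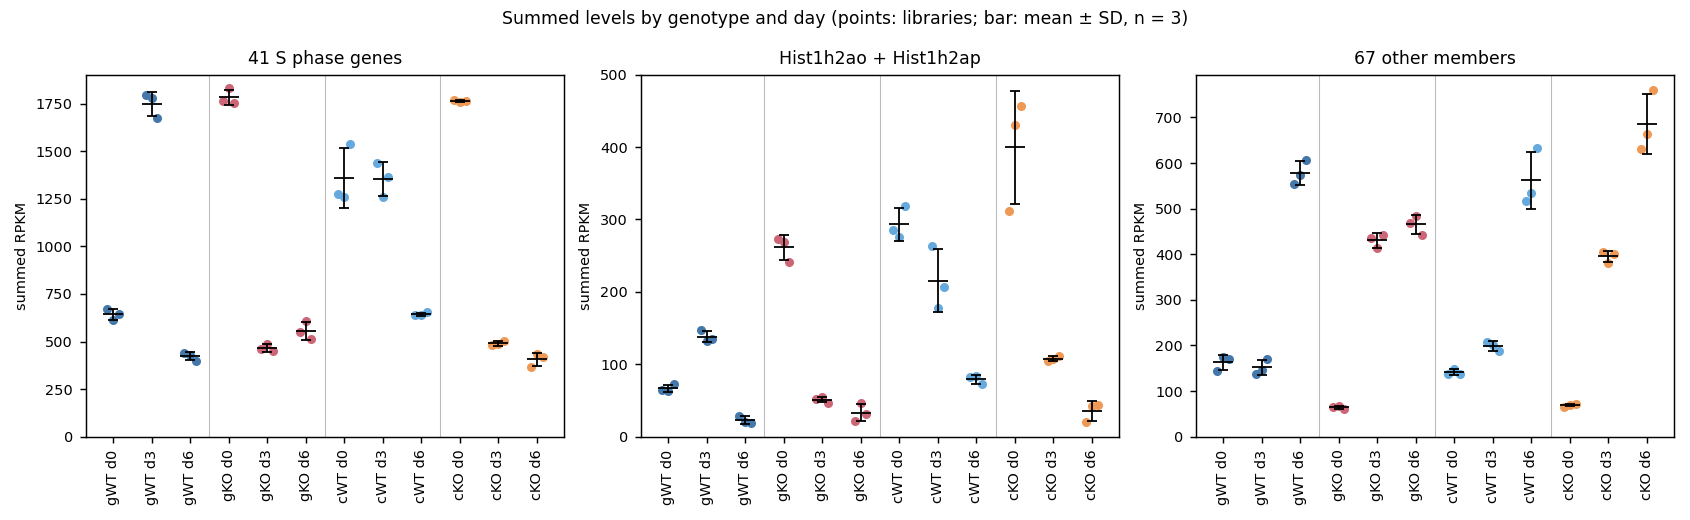
Summed RPKM (vertical axes, linear from 0) of 41 S phase genes, of Hist1h2ao with Hist1h2ap, and of the 67 other histone members in each genotype and day; points are libraries and bars the mean ± SD (n = 3). In gWT the S phase sum is highest at day 3 (1748) and that of the other members at day 6 (579), while in gKO the S phase sum is highest at day 0 (1782).

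From BMMs to preOCs in gWT, most tested members with a short 3′ end rose, while few of those with a long end changed. Of the 37 tested members 12 rose and 2 fell, where 48.4% of all 11863 genes tested rose and 35% fell, so the count of rises was below the share of the background. Hist1h2ao, an H2A gene with a short 3′ end, measured 47.1, 49.9 and 68.2 RPKM in BMMs and 116, 100.5 and 103 in preOCs, and Hist1h2ap 17, 13.4 and 4.62 and 31.6, 32.1 and 31.8. No library of one day overlapped the other for either gene. On the log2(RPKM + 1) scale, used for all changes below and given ± SE, Hist1h2ao rose by 0.95 ± 0.25 (limma adjusted p = 0.000863) and Hist1h2ap by 1.53 ± 0.39 (limma adjusted p = 0.000663). Hist1h2ag, another H2A gene, went from 1.002, 1.34 and 0.895 to 3.08, 3.09 and 2.31 RPKM, a rise of 0.88 ± 0.29 (limma adjusted p = 0.00667) that missed the threshold with a pseudocount of 0.1 (adjusted p = 0.0609). Hist1h4m, an H4 gene under 2 RPKM at both days, rose by 0.73 ± 0.30 (limma adjusted p = 0.0279); without preOC replicate 2 its change was 0.416 (adjusted p = 0.224), without preOC replicate 3 it was 1.15, and the call was also lost without preOC replicate 1 or BMM replicate 1 or 3.

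Hist3h2a, an H2A gene of the small Hist3 cluster, moved the other way. It measured 41.7, 47.9 and 44 RPKM in gWT BMMs and 17, 16 and 20.2 in preOCs, and its change was -1.28 ± 0.09 (limma adjusted p = 1.29e-13). All BMM libraries were above all preOC libraries. Hist2h2aa2 fell by 0.565 (limma adjusted p = 0.00349), but by 0.291 without BMM replicate 2 (adjusted p = 0.0861). Hist1h1c (0.03), Hist1h2bc (-0.06) and Hist1h4i (-0.104) did not pass, with a median of 0.13 over all genes. By annotated end, 9 of 13 tested short-end members rose and 1 fell (median change 0.47), against 2 up and 1 down of 17 long-end members (median -0.05). In the same comparison 40 of 41 S phase genes rose and 1 fell, with a median of 1.54. Cell type markers moved with this step too: all 9 neutrophil markers fell (sum 1892 to 2529 RPKM in BMMs and 302 to 722 in preOCs), 5 of 6 macrophage markers fell (2119 to 2158 and 996 to 1089), all 7 osteoclast markers rose (73.7 to 143 and 3428 to 5242) and 6 of 7 tested stromal markers rose (8 listed, 2.84 to 3.88 and 26.7 to 42.1). Their part in the histone changes was not tested. With quantile scaling, which brings the median over all genes to 0.02, 9 members rose and 4 fell.

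From preOCs to OCs in gWT the balance turned. Of 37 members 21 rose and 4 fell, against 27.7% of all genes up and 47.9% down, and 14 members rose at least 2-fold, as did 4.99% of all genes, while 3 fell that far, as did 10.3%. The linker histone gene Hist1h1c measured 28, 28.7 and 35.4 RPKM in preOCs and 109, 116 and 118 in OCs. It rose by 1.87 ± 0.10 (limma adjusted p = 7.73e-17). Each OC library was above every preOC library. Among core histones, Hist2h2aa1 (H2A) went from 17.7, 17.6 and 26.4 to 106, 119.9 and 114 RPKM, a rise of 2.43 ± 0.13 (limma adjusted p = 1.12e-16). Hist1h2bc (H2B) went from 33.9, 40.3 and 50.6 to 177, 176 and 205, a rise of 2.15 ± 0.11 (limma adjusted p = 4.96e-17). Hist2h2be (H2B) went from 3.64, 3.8 and 4.53 to 22.5, 21 and 23.5, a rise of 2.23 ± 0.07 (limma adjusted p = 3.26e-21). All 4 genes were higher in each OC library than in any preOC library.

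Members of the H3 and H4 families rose as well. Hist1h4h, an H4 gene, measured 0.753, 1.12 and 0.535 RPKM in gWT preOCs and 10.3, 11 and 11.6 in OCs, the largest rise among the tested members in this comparison at 2.74 ± 0.12 (limma adjusted p = 1.61e-18). Hist1h4i, the most abundant H4 member, rose by 1.2 ± 0.13 (limma adjusted p = 9.17e-10), from 8.67, 7.15 and 8.85 RPKM to 21.8, 20.4 and 18.5. The H3 genes Hist2h3c1 and Hist2h3c2, which cannot be told apart by their coding sequence, rose by 1.75 ± 0.25 (limma adjusted p = 4.66e-07) and 1.996 ± 0.19 (limma adjusted p = 1.52e-10). Hist3h2a returned to 53, 50.2 and 53.7 RPKM, near its BMM level. The 4 falls were of short-end members: Hist1h2ao went from 116, 100.5 and 103 RPKM to 20.5, 13.6 and 10.6, a change of -2.8 ± 0.25 (limma adjusted p = 3.59e-11), and Hist1h2ap to 8.27, 6.07 and 8.76, a change of -1.93 ± 0.39 (limma adjusted p = 5.56e-05). Hist1h2ag changed by -1.06 and Hist1h3c, an H3 gene under 2 RPKM, by -0.598, and for Hist1h3c the call was lost without preOC replicate 2 (-0.35, adjusted p = 0.225) and without OC replicate 1 (adjusted p = 0.0655) or 2 (adjusted p = 0.195). That call was also lost with no filter on low values (adjusted p = 0.0537).

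The 2 kinds of annotated end differed in count. Of 17 long-end members 12 rose and 0 fell from gWT preOCs to OCs (median 1.10), whereas of 13 short-end members 6 rose and 4 fell (median -0.24), with -0.14 as the median over all genes. All 41 S phase genes and all 30 mitosis genes fell in this comparison, with medians of -2 and -2.21. The end did not settle the direction for each gene: Hist2h2aa1 and Hist1h4h, annotated with short ends, were among the members with the largest rises. Of the short-end members, Hist1h4h alone had a poly(A) signal after its stem-loop. The osteoclast marker sum went from 4145 ± 964 to 22536 ± 618 RPKM in the same step, and the neutrophil sum from 532 ± 213 to 92 ± 10.6 with all 9 markers lower. Their part was not tested here either.

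**Figure D3:**
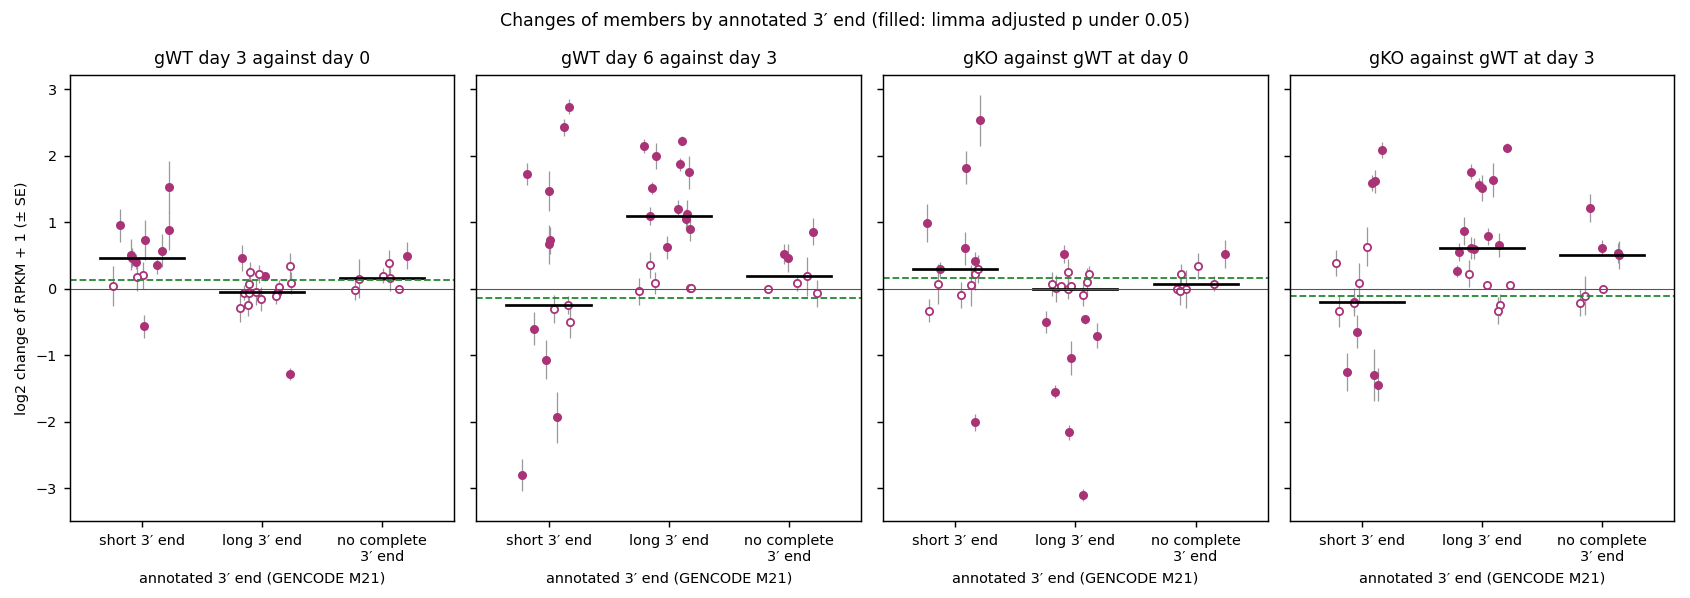
Log2 changes of RPKM + 1 (vertical axis, ± SE) of the 37 tested members by annotated 3′ end, in 4 comparisons; filled points passed limma at an adjusted p under 0.05, black bars are class medians and the green dashed line is the median over all genes. In gWT day 6 against day 3 the long-end class has a median of 1.10 and the short-end class of -0.24, while in gWT day 3 against day 0 the medians are -0.05 and 0.47.

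**Figure D4:**
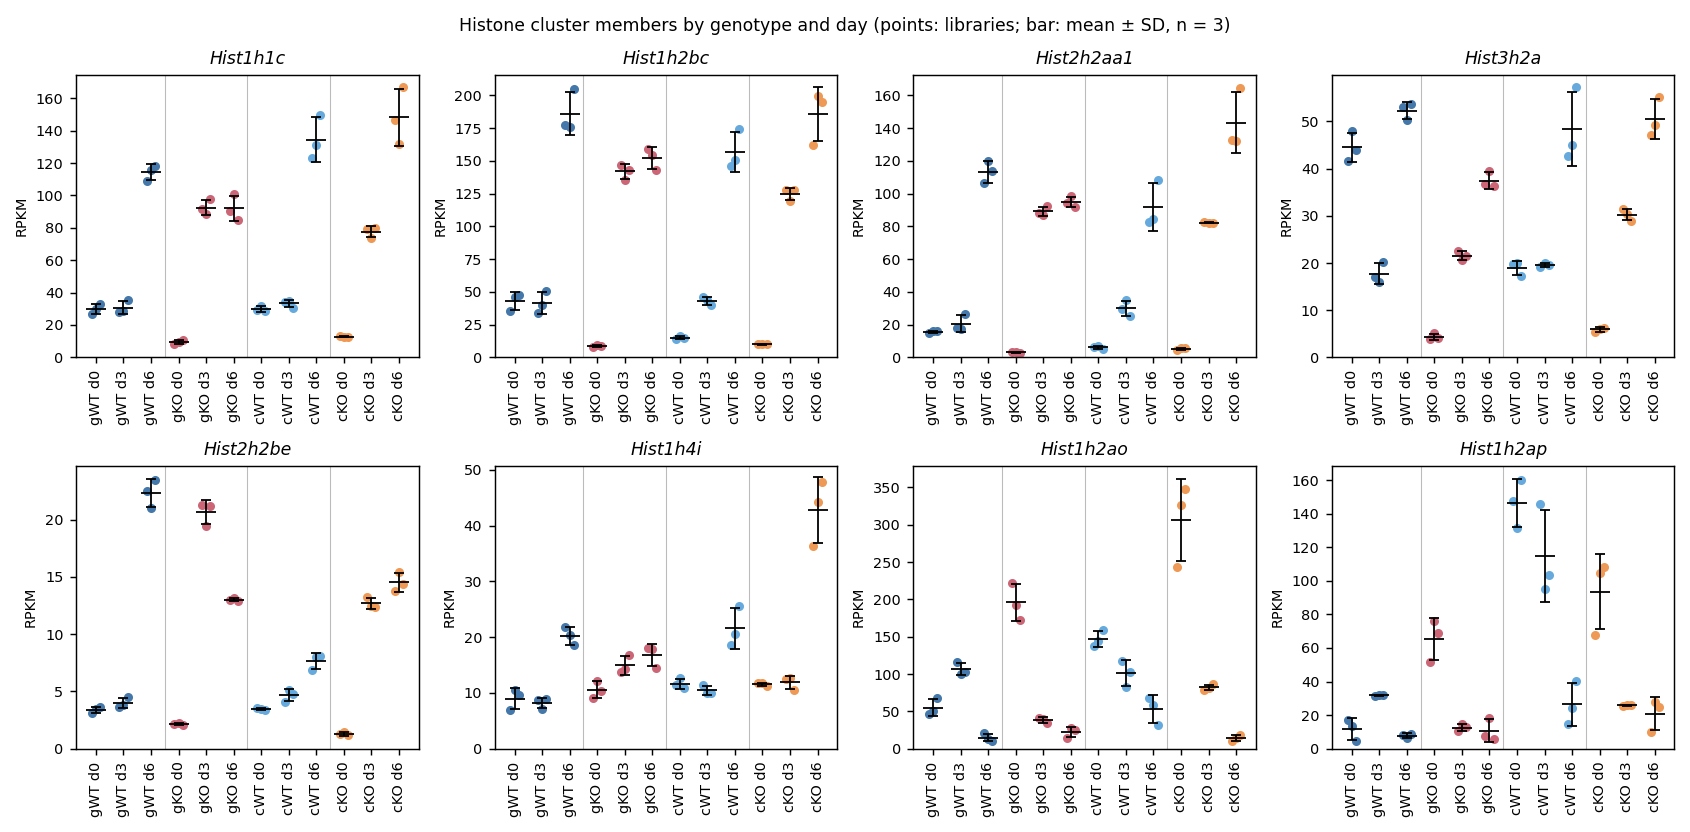
RPKM (vertical axes, linear from 0) of the 8 members with the highest group means, by genotype and day; points are libraries and bars the mean ± SD (n = 3). Hist1h1c, Hist1h2bc, Hist2h2aa1 and Hist2h2be are high at day 6 and already at day 3 in gKO and cKO, while Hist1h2ao and Hist1h2ap are high at day 0 in gKO, cWT and cKO and still in cWT at day 3 (101 and 115 RPKM). In gWT Hist1h2ao is highest at day 3, at about its level in cWT at day 3.

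In BMMs, Hist3h2a, Hist1h2bc, Hist2h2aa1 and Hist1h1c were lower in gKO than in gWT, and Hist1h2ao and Hist1h2ap higher. Of 37 members 8 were higher and 8 lower, where 49% of all genes were higher and 29.8% lower; with quantile scaling 6 were higher and 9 lower. Hist3h2a measured 41.7, 47.9 and 44 RPKM in gWT and 3.81, 5.12 and 4.05 in gKO, a difference of -3.1 ± 0.09 (limma adjusted p = 1.58e-22). Hist1h2bc measured 35.5, 46.4 and 47.4 and 8.19, 9.21 and 8.99 RPKM, a difference of -2.16 ± 0.11 (limma adjusted p = 2.85e-17). No gKO library reached the lowest gWT library for either gene. The same held for Hist2h2aa1, at 14.6, 16.2 and 15.8 RPKM in gWT and 3.13, 3.31 and 2.89 in gKO (-2.01 ± 0.13, limma adjusted p = 6.52e-15). Hist1h1c stood at 26.7, 30.002 and 33.1 and 8.38, 9.47 and 10.9 RPKM (-1.55 ± 0.10, limma adjusted p = 4.53e-15). In the other direction, Hist1h2ao was at 222, 193 and 173 RPKM in gKO, higher by 1.82 ± 0.25 (limma adjusted p = 1.29e-07), and Hist1h2ap at 51.6, 75.8 and 69, higher by 2.53 ± 0.39 (limma adjusted p = 9.68e-07). Hist1h2ag was higher by 0.99 and Hist1h3c by 0.61, the latter call being lost without gWT replicate 1 or 2 (adjusted p = 0.0713 and 0.0644), without gKO replicate 1 or 2 (0.137 and 0.0686) and with quantile scaling (0.0553). With a pseudocount of 0.1 it was lost too (adjusted p = 0.1).

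Long-end members were lower in 7 and higher in 1 of 17, and short-end members higher in 6 and lower in 1 of 13. The 6 of 13 are close to the 49% of all genes that were higher. All 41 S phase genes were higher in gKO BMMs, summing to 1782 ± 41.2 RPKM against 643 ± 30.3. The neutrophil marker sum also moved with this comparison, at 21053 to 26589.97 RPKM in gKO and 1892 to 2529 in gWT, with the macrophage sum at 562 to 610.1 and 2119 to 2158. Their part in the histone differences was not tested.

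In preOCs the order of the 2 genotypes was the opposite. Of 37 members 19 were higher and 4 lower in gKO, against 32.6% of all genes higher and 46.5% lower, with a difference of 2-fold or more in 9 upward and 3 downward, as in 6.78% and 11% of all genes. Hist2h2be measured 3.64, 3.8 and 4.53 RPKM in gWT and 21.3, 19.5 and 21.2 in gKO, a difference of 2.12 ± 0.07 (limma adjusted p = 5.34e-21). Hist2h2aa1 stood at 88.3, 86.8 and 92.2 RPKM in gKO (2.09 ± 0.13, limma adjusted p = 3.22e-15) and Hist1h2bc at 147, 136 and 143 (1.76 ± 0.11, limma adjusted p = 4.21e-15). Hist1h1c, at 91.7, 88.4 and 97.6 RPKM, was higher by 1.57 ± 0.10 (limma adjusted p = 4.04e-15). None of these gKO libraries overlapped gWT preOCs, and all 4 genes were within or below the range of gWT OCs. The H3 gene Hist2h3c1 was higher by 1.64 ± 0.25 (limma adjusted p = 1.29e-06). Hist1h2ao, at 41.6, 39.9 and 34.4 RPKM, was lower by a log2 difference of -1.44 ± 0.25 (limma adjusted p = 6.23e-06), and Hist1h2ap, at 10.4, 14.4 and 12.7, by -1.3 ± 0.39 (limma adjusted p = 0.00337). Hist1h2ag differed by -1.25 and Hist1h3c by -0.65, which was lost without gWT replicate 2 (-0.397, adjusted p = 0.162) or gKO replicate 3 (adjusted p = 0.125).

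Of the long-end members 12 of 17 were higher and 0 lower in gKO preOCs, and of the short-end members 3 of 13 were higher and 4 lower. S phase genes were lower in 40 of 41, and the osteoclast marker sum was 22062 to 23107 RPKM in gKO against 3428 to 5242 in gWT, with all 7 higher. All 9 neutrophil markers were higher as well, summing to 5453 to 6679 RPKM in gKO and 302 to 722 in gWT, and the part of either list was not tested. By day 6 the sums of the 67 members other than Hist1h2ao and Hist1h2ap were 443 to 484 RPKM in gKO and 555 to 607 in gWT. At that day 0 members were higher and 9 lower in gKO by limma, where 24.7% and 25.3% of all genes were. Hist1h4h was at 5.07, 5.48 and 4.27 RPKM in gKO OCs and 10.3, 11 and 11.6 in gWT OCs, a difference of -1.01 ± 0.12 (limma adjusted p = 3.16e-08). Hist2h2be was at 13, 13.2 and 12.9 and 22.5, 21 and 23.5, a difference of -0.74 ± 0.07 (limma adjusted p = 8.37e-10). Smaller differences passed for the H2B gene Hist1h2bg (-0.65) and the linker histone gene Hist1h1e (-0.62), with 1 member in all at least 2-fold lower (1.69% of all genes) and 0 at least 2-fold higher (0.683%). Hist1h2ao at 14.7, 27.6 and 25.6 RPKM overlapped gWT OCs, and its difference of 0.57 did not pass.

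Within gKO, the step from BMMs to preOCs held most of the change. Here 18 of 37 members rose and 4 fell, against 28.6% and 53.9% of all genes, and 10 rose at least 2-fold, as did 9.77% of all genes, while 3 fell that far, as did 13.9%. Hist2h2aa1 went from 3.13, 3.31 and 2.89 to 88.3, 86.8 and 92.2 RPKM, a rise of 4.46 ± 0.13 (limma adjusted p = 2.86e-23). Hist1h2bc rose by 3.87 ± 0.11 (limma adjusted p = 1.96e-23), Hist1h1c by 3.15 ± 0.10 (limma adjusted p = 1.48e-22) and Hist2h2be by 2.77 ± 0.07 (limma adjusted p = 2.53e-24), with no overlap of libraries. Hist1h2ao changed by -2.31 ± 0.25 (limma adjusted p = 1.37e-09), Hist1h2ap by -2.3 ± 0.39 (limma adjusted p = 4.12e-06) and Hist1h2ag by -1.36 ± 0.29 (limma adjusted p = 9.84e-05). Hist1h3c fell too (-0.68), not so without BMM replicate 1 (adjusted p = 0.0809) or preOC replicate 3 (adjusted p = 0.0945). All 41 S phase genes fell in the same step, as did all 9 neutrophil markers (sum 21053 to 26589.97 RPKM in BMMs and 5453 to 6679 in preOCs), and all 7 osteoclast markers rose (113 to 158 and 22062 to 23107). Their part was not tested. From preOCs to OCs 4 members rose and 6 fell by limma (26% and 33.3% of all genes), and 6 were called in all without preOC replicate 2; with quantile scaling 8 rose and 4 fell. Hist3h2a rose from 22.5, 20.7 and 21.4 to 36.7, 39.5 and 36.3 RPKM (0.77 ± 0.09, limma adjusted p = 3.37e-08), and Hist2h2be fell from 21.3, 19.5 and 21.2 to 13, 13.2 and 12.9 (-0.63 ± 0.07, limma adjusted p = 1.11e-08).

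Other calls in that last step were of low members or rested on single libraries. Hist1h4m rose from 1.77, 0.609 and 0.561 to 4.52, 2.81 and 4.39 RPKM (1.34; adjusted p = 0.0514 with a pseudocount of 0.1). The H3 gene Hist1h3i fell from 4.06, 2.4 and 4.27 to 1.59, 2.2 and 1.18 RPKM (-0.78; adjusted p = 0.123 with that pseudocount), and the linker histone gene Hist1h1b from 1.07, 1.02 and 1.17 to 0.175, 0.239 and 0.597 (-0.65). Hist1h1b met the filter only through gKO preOCs, which fixed its direction in this step and its calls as a rise in the step before and as higher than in gWT preOCs. For Hist1h2ao the change of -0.79 became -0.519 (adjusted p = 0.0862) without OC replicate 1. For Hist1h1d the change of 0.41 became 0.2 (adjusted p = 0.258) without OC replicate 3 and 0.353 (adjusted p = 0.086) without preOC replicate 2. Its call was also lost with a pseudocount of 0.1 (adjusted p = 0.0977). The call of Hist2h3c2 (0.46) was lost without any one of preOC replicates 1, 2 and 3 and OC replicates 1 and 3, with changes of 0.354 to 0.505 and adjusted p up to 0.16. It was also lost with a pseudocount of 0.1 (adjusted p = 0.256) and with no filter on low values (0.0779).

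The difference between the genotypes in each step was tested as an interaction. For day 3 against day 0, gKO moved more upward than gWT in 16 of 37 members and more downward in 5, where 32.4% and 49.5% of all genes did. From day 3 to day 6 it was 4 members more upward and 20 more downward, against 41.6% and 33.2% of all genes. Hist1h1b met the filter only through gKO preOCs, which fixed its direction as upward in the first interaction and downward in the second. For Hist1h1c the 2 interactions were 3.12 ± 0.13 (limma adjusted p = 8.89e-19) and -1.88 ± 0.13 (limma adjusted p = 2.92e-13). For Hist1h2ao they were -3.26 ± 0.35 (limma adjusted p = 1.48e-09) and 2.01 ± 0.35 (limma adjusted p = 8.62e-06). So the long-end linker histone gene had its rise in the earlier step in gKO and in the later one in gWT, while Hist1h2ao rose and then fell in gWT and fell in both steps in gKO. Without the filter on low values the first interaction had 15 members more upward and 17 more downward of all 69.

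In the c libraries members also moved by day, and no test compared them with the g libraries. From cWT BMMs to preOCs 11 of 37 members rose and 3 fell (39.8% and 38.9% of all genes), and from preOCs to OCs 19 rose and 6 fell (28.5% and 42.8%). Hist2h2aa1 measured 6.26, 7.16 and 5.005 RPKM in cWT BMMs, 29.3, 34.9 and 25.3 in preOCs and 82.5, 84.5 and 109 in OCs, with no overlap between days. It rose by 2.11 ± 0.13 (limma adjusted p = 2.46e-15) and then by 1.59 ± 0.13 (limma adjusted p = 6.59e-12). Hist1h2bc rose in both steps too (1.47 and 1.84), as did the H3 genes Hist2h3c1 (1.7 and 1.68) and Hist2h3c2 (1.29 and 1.88). Hist1h1c was at 29.5, 32 and 28.4, then 34.4, 35 and 30.7 and then 123, 131 and 149.7 RPKM, rising in the second step by 1.98 ± 0.10 (limma adjusted p = 2.64e-16). Hist1h4h rose by 2.32 ± 0.12 (limma adjusted p = 7.17e-16) and Hist1h4m by 3.15 ± 0.30 (limma adjusted p = 5.19e-10) in that step.

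Hist1h2ap stood at 148, 132 and 160.04 RPKM in cWT BMMs, 146, 95.3 and 103 in preOCs and 14.6, 24.4 and 40.3 in OCs, falling in the second step (-2.17 ± 0.39, limma adjusted p = 1.55e-05). For Hist1h2ao the first step was -0.55 ± 0.25 (limma adjusted p = 0.0423), a call lost without any one of BMM replicates 1, 2 and 3 and preOC replicates 2 and 3 (changes of -0.416 to -0.598, adjusted p up to 0.167). That call was also lost with no filter on low values (adjusted p = 0.0705). Hist1h2ag fell in that step by a log2 change of -0.77, which became -0.536 (adjusted p = 0.121) without BMM replicate 2 and -0.671 (adjusted p = 0.068) without preOC replicate 1. With a pseudocount of 0.1 the call of Hist1h2ag was lost too (adjusted p = 0.195). In the second step all 41 S phase genes fell, and in the first 19 rose and 11 fell. Of the cWT calls, the rise of Hist1h3e in the first step and the fall of Hist1h2bk in the second were fixed by the filter, which both met only through cWT preOCs. The neutrophil marker sum over the 3 days was 3363, 904 and 782 RPKM in cWT and 22279, 5329.6 and 173 in cKO. The osteoclast sum was 90.4, 5628 and 16396 RPKM in cWT and 131, 16842 and 25113 in cKO. The stromal marker sum was 1.12 to 2.44, 10.1 to 60.3 and 307 to 410 RPKM in cWT. In cKO it was 11.1 to 15.3, 28.1 to 105 and 135 to 168 RPKM. The part of these lists in the c comparisons was not tested.

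From cKO BMMs to preOCs 19 members rose and 6 fell (30.2% and 50.2% of all genes), 13 rising and 2 falling at least 2-fold (8.78% and 11.1% of all genes). Hist2h2aa1 went from 4.53, 5.59 and 5.43 to 82.6, 81.8 and 82.2 RPKM (3.75 ± 0.13, limma adjusted p = 2.79e-21) and Hist1h2bc from 9.92, 10.3 and 9.85 to 128, 119 and 127 (3.51 ± 0.11, limma adjusted p = 3.36e-22). Hist2h3c2 rose by 2.95 ± 0.19 (limma adjusted p = 2.17e-14) and Hist2h3c1 by 2.79 ± 0.25 (limma adjusted p = 5.86e-11). Libraries of the 2 days did not overlap for any of these 4 genes. Hist1h2ao fell from 243, 327 and 348 to 78.8, 81.6 and 86.1 RPKM (-1.87 ± 0.25, limma adjusted p = 8.37e-08) and Hist1h2ap from 67.8, 104 and 109 to 25.5, 26.1 and 25.9 (-1.79 ± 0.39, limma adjusted p = 0.000131). Hist1h2ag (-0.86) and Hist1h3c (-0.63) fell as well, but Hist1h2ag not without preOC replicate 2 (-0.544, adjusted p = 0.0974), and Hist1h3c not without BMM replicate 3 (adjusted p = 0.125) or preOC replicate 1 (-0.357, adjusted p = 0.197). From preOCs to OCs 24 members rose and 2 fell (20.4% and 36.7% of all genes). For 3 of the rises, Hist1h2ba, Hist1h2bq and Hist1h2br, the filter was met only through cKO OCs, which fixed their direction. Hist1h4i rose from 12.5, 12.6 and 10.6 to 36.3, 44.3 and 47.8 RPKM (1.76 ± 0.13, limma adjusted p = 1.29e-12). Hist1h1d rose by 1.6 and Hist1h4h by 1.41, and Hist1h2ao fell to 10.3, 14.6 and 18.8 RPKM (-2.45 ± 0.25, limma adjusted p = 2.4e-09). These OC libraries differ in data set letter from the BMM and preOC libraries labelled cKO; with the letter as a term in the fit 10 members rose and 2 fell. That term is set within cWT OCs alone, by 1 library with s against 2 with t, so each value with it rests on that 1 library.

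Against cWT, the cKO-labelled libraries had 4 members higher and 13 lower at day 0 (36.2% and 31.7% of all genes), 15 higher and 10 lower at day 3 (32.8% and 44.2%), and 10 higher and 4 lower at day 6 (13.2% and 40.4%). The filter was met only through cWT preOCs for 2 of the members lower at day 3, Hist1h2bk and Hist1h3e, and only through cKO OCs for 3 of those higher at day 6, Hist1h2ba, Hist1h2bq and Hist1h2br. Quantile scaling gave 2 and 15 at day 0, and 15 and 3 at day 6. At day 0 Hist3h2a was at 19.8, 19.9 and 17.2 RPKM in cWT and 5.42, 6.05 and 6.31 in cKO (-1.53 ± 0.09, limma adjusted p = 9.51e-15), and Hist1h1c at 29.5, 32 and 28.4 and 13.1, 12.4 and 12.7 (-1.17 ± 0.10, limma adjusted p = 7.75e-12). Hist1h2ao was higher in cKO by 1.04 ± 0.25 (limma adjusted p = 0.000541), a difference that was 0.072 with the data set letter as a term (adjusted p = 0.9). In that day 0 comparison the neutrophil marker sum was 21627 to 22987 RPKM in cKO and 3322 to 3416 in cWT, and its part was not tested. At day 3 Hist1h2bc (1.51 ± 0.11, limma adjusted p = 2.81e-13), Hist2h2aa1 (1.44 ± 0.13, limma adjusted p = 2.29e-11) and Hist2h3c2 (1.34 ± 0.19, limma adjusted p = 3.45e-07) were higher in cKO, and Hist1h2ap lower (-2.09 ± 0.39 (limma adjusted p = 2.12e-05); -1.03 with the letter as a term, adjusted p = 0.192). At day 6 Hist1h4i was higher in cKO (0.96 ± 0.13, limma adjusted p = 3.94e-07), as was Hist2h2be (0.85 ± 0.07, limma adjusted p = 8.28e-11), and Hist1h2ao was at 68.4, 59 and 32.1 RPKM in cWT and 10.3, 14.6 and 18.8 in cKO (-1.77 ± 0.25, limma adjusted p = 1.13e-06). The day 6 differences of Hist1h2ag (-1.16) and Hist1h4m (-0.77) were negative. That of Hist1h4m missed the threshold without cWT replicate 1 (adjusted p = 0.0959) or 2 (0.0637), without cKO replicate 1 (0.119) or 2 (0.114) and with quantile scaling (0.0838). It also did so with a pseudocount of 0.1 (adjusted p = 0.442), with no filter on low values (0.0576) and with the letter as a term (difference -0.677). Without cKO OC replicate 2 the day 6 calls were 9 instead of 14. With the letter as a term 2 members were higher and 6 lower at day 0, and 6 higher and 3 lower at day 6.

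A few members separated the c libraries in a way that follows neither genotype nor day. Hist2h2ac, an H2A gene of the Hist2 cluster, measured 8.35, 5.44 and 5.79 RPKM in cKO preOCs and 6.94, 6.88 and 8.8 in cWT OCs, but 0.492, 0.0876 and 0.308 in cWT preOCs and 0.216, 0.381 and 0.363 in cKO OCs. In BMMs it was at 1.07, 1.07 and 0.74 RPKM in cKO and 0.426, 0.156 and 0.296 in cWT. The sign of its difference between cKO and cWT thus turned, from 0.601 ± 0.14 (limma adjusted p = 0.000357) at day 0 and 2.53 ± 0.14 (limma adjusted p = 9.25e-16) at day 3 to -2.69 ± 0.14 (limma adjusted p = 1.94e-15) at day 6. Hist1h2ak, another H2A gene, went the opposite way, at 17.2, 16.5 and 18.2 RPKM in cWT BMMs and 17.8, 10.5 and 12.9 in cWT preOCs, against 0.494, 0.769 and 0.917 and 0.421, 0.5003 and 0.19997 in cKO. In OCs it was at 0.983, 0.252 and 0.508 RPKM in cWT and 0.976, 2.49 and 2.64 in cKO. Its differences were -3.41 ± 0.20 (limma adjusted p = 5.33e-15), -3.4 ± 0.20 (limma adjusted p = 4.72e-15) and 0.92 ± 0.20 (limma adjusted p = 0.000327).

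Hist1h2ba, the testis-specific H2B gene, was at 0.207, 0.093 and 0.242 RPKM in cWT BMMs, 0.614, 0.54 and 0.487 in cWT preOCs and 1.95, 2.35 and 2.17 in cKO OCs. In the other 27 libraries, all g libraries and cWT OCs included, it was under 0.001 RPKM. The H2A gene Hist1h2ae measured 9.03, 8.18 and 9.63 RPKM in cWT BMMs and 7.55, 4.41 and 4.45 in cWT preOCs, against 1.93, 1.52 and 2.23 and 2.44, 1.37 and 1.03 in cKO. The pair Hist1h2bq and Hist1h2br was at 1.06, 1.01 and 1.24 RPKM in cKO OCs and at most 0.219 in any other library. Its day 0 difference of 0.11 between cKO and cWT was called but lost without cWT replicate 1 (adjusted p = 0.0584) or 2 (0.0513), without cKO replicate 3 (0.0932) and with quantile scaling (0.574). In a fit of only the c libraries it was lost too (adjusted p = 0.0836). The H2B gene Hist1h2bk was at 1.91, 1.1 and 1.11 RPKM in cWT preOCs and 0.00283, 0.000217 and 0.189 in cKO preOCs. For Hist2h2ac and Hist1h2ba, then, the day 6 libraries labelled cKO were on the side of the day 0 and day 3 libraries labelled cWT, whereas for Hist1h2ak they were below all of those. A header line of the deposited table says that cKO and cWT at day 6 were given corrected annotation, and the cWT OC library with the letter s, replicate 3, had 8.8 RPKM of Hist2h2ac, not less than those with t. Whether the genotype, the data set or the label goes with these members cannot be told apart here.

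**Figure D5:**
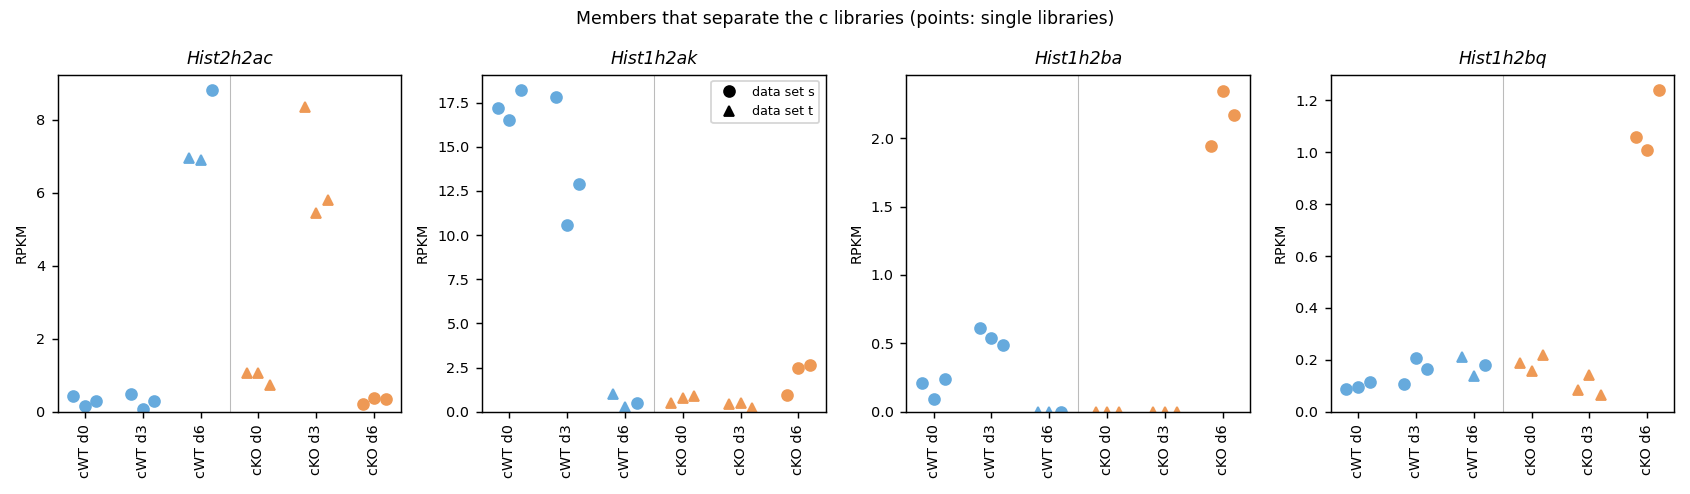
RPKM (vertical axes, linear from 0) of 4 members in each c library, by genotype and day; circles are libraries with the data set letter s and triangles those with t. Hist2h2ac is at 5.44 RPKM or more in all cKO day 3 and cWT day 6 libraries and at 1.07 or less in the others, and Hist1h2ba is at 1.95 to 2.35 RPKM in cKO day 6 and at 0.614 or less in the others.

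Genes that process histone mRNA and deposit histones moved in gWT in the direction of the S phase genes. Slbp, which encodes the protein that binds the stem-loop, averaged 23.1, 39.1 and 15.9 RPKM in gWT at days 0, 3 and 6, and 64.7, 20.3 and 17.5 in gKO. It rose in gWT from day 0 to day 3 by 0.73 ± 0.08 (limma adjusted p = 8.95e-10) and then changed by -1.24 ± 0.08 (limma adjusted p = 1.08e-14), and between genotypes it differed by 1.45 ± 0.08 (limma adjusted p = 2.26e-16) in BMMs and -0.91 ± 0.08 (limma adjusted p = 1.07e-11) in preOCs. Of 18 tested genes for histone mRNA processing, 16 rose and 1 fell from gWT BMMs to preOCs, and 1 rose and 16 fell from preOCs to OCs. Of 19 histone chaperone and assembly genes, 16 rose and 2 fell in the first step and 0 rose and 17 fell in the second. The 16 genes for cleavage and polyadenylation of other mRNAs went the same way, with 13 up and 1 down, then 1 up and 14 down. Of all genes 48.4% rose and 35% fell in the first step, and 27.7% and 47.9% in the second. Between gKO and gWT the processing genes were higher in 16 and lower in 2 of 18 in BMMs, and higher in 1 and lower in 16 in preOCs.

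The most abundant replacement variants were at levels that few cluster members reached. In RPKM, which is per length, H2afz, the H2A.Z gene, had group means of 339 to 778 RPKM, and the H3.3 genes H3f3a and H3f3b 317 to 675 and 146 to 315. No group mean of a single cluster member exceeded 306 RPKM, that of Hist1h2ao in cKO BMMs. Most cluster mRNAs lack a poly(A) tail, the library type is not given, and reads of near-identical copies may be shared among members. These values are thus no ranking of mRNA amounts. H2afx, a replacement variant whose gene carries a stem-loop like the members, measured 36.1 ± 0.873, 91.3 ± 3.27 and 14 ± 1.9 RPKM in gWT and 156 ± 9.998, 36.2 ± 2.34 and 18.4 ± 2.66 in gKO. Its levels were highest where Slbp and the S phase sum were highest. Of the 11 replacement variants 5 rose and 5 fell from gWT BMMs to preOCs, and 1 rose and 6 fell from preOCs to OCs (median -0.65), where 47.9% of all genes fell.

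The day of the highest mean differed by genotype among the 37 members that passed the filter. In gWT 2 members peaked at day 0, 10 at day 3 and 25 at day 6, and in gKO the counts were 11, 13 and 13. In cWT they were 5, 6 and 26, and in cKO 6, 3 and 28. These counts are a description, since members that passed only through one group had to peak there.

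Promoters were read for the 61 members matched by synonym in RefSeq's GRCm38.p6 table, as the 250 bases before the annotated start. Searched on both strands, TATAAA was found in 29 (47.5%, against 12.4% of all 32851 promoters), CCAAT in 50 (82.0%, against 33.8%) and ATTTGCAT, the octamer, in 13 (21.3%, against 1.6%). None of the matches overlapped another in a member. Of the promoters, 4 are shown with matches in capitals, since Hist1h1c, Hist2h2aa1 and Hist3h2a rose from gWT preOCs to OCs and Hist1h2ao fell. The promoter of Hist1h1c lies at chr13:23738557-23738806 on the plus strand, that of Hist2h2aa1 at chr3:96245247-96245496 on the plus strand, that of Hist3h2a at chr11:58954435-58954684 on the plus strand and that of Hist1h2ao at chr13:21810117-21810366 on the plus strand.
Hist1h1c: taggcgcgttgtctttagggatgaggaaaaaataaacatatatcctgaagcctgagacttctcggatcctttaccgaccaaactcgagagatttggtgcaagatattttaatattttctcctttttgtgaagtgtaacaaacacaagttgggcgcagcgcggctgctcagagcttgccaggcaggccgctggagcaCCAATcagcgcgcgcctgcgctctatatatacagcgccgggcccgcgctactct
Hist2h2aa1: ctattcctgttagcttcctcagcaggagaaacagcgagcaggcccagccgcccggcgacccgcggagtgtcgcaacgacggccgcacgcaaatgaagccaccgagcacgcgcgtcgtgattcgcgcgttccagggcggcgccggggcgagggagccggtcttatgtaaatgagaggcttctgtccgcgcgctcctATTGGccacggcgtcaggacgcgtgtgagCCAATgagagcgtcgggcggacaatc
Hist3h2a: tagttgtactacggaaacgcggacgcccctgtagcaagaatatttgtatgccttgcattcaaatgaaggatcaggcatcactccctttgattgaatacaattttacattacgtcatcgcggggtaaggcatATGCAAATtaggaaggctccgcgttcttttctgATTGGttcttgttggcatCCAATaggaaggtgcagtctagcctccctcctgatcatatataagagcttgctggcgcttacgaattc
Hist1h2ao: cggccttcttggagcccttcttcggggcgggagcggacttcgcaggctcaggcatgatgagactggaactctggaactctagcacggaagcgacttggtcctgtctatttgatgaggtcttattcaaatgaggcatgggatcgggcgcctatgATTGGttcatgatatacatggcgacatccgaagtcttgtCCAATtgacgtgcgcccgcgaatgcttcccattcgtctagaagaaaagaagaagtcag
All 4 hold CCAAT or its complement, Hist3h2a alone of them holds the octamer, and none holds TATAAA. A match is a description of the letters in this window.

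Many members lie head to head with a neighbour, and 13 such pairs were annotated. In 7 pairs both genes passed the filter. The pair Hist1h2ac and Hist1h2bc rose together from gWT preOCs to OCs, by 1.13 ± 0.21 (limma adjusted p = 2.31e-05) and 2.15 ± 0.11 (limma adjusted p = 4.96e-17). Their levels per length were far apart, with gWT OC means of 1.51 ± 0.69 and 186 ± 16.5 RPKM. Hist2h2ac and Hist2h2be did not move together, since in that step Hist2h2be rose and the change of Hist2h2ac (-0.24) did not pass. Hist1h2ak stood at 17.3 ± 0.845 RPKM in cWT BMMs, with its neighbour Hist1h2bn at 0.259 ± 0.247.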

How the data were processed

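RNA of 36 libraries was sequenced, 3 for each of 4 labelled Irf8 genotypes on each of 3 days. The submitters' processing notes name the build mm9 and the tools TopHat2 2.1.0, Partek, deepTools, bcl2fastq 2.17.1 and CASAVA 1.8.4. The authors mapped with TopHat and let Partek compute RPKM per gene from 3 combined data sets, per the file headers. Gene model, counting settings, strand and library type are not stated, that is, not given in the sources used here. A deposited sheet lists 34510144 to 92548145 alignments per library (median 46799532). Without read counts, the counting error of low values is unknown.

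Members were found by name. The members and the gene lists were chosen with earlier results of these data known. RPKM values were used as deposited, changed to log2(RPKM + 1), and 11863 of 24950 genes were tested, those reaching 1 RPKM in 3 or more libraries. The pseudocount of 1 understates the change of low genes. One limma 3.58.1 model in R 4.3.3, with trend and robust moderation, fitted 12 group means to all 36 libraries. Contrasts were both steps in time in each genotype, knockout label against wild-type label on each day, and the difference of the gKO and gWT steps. Benjamini-Hochberg adjustment ran over all genes tested, and adjusted p under 0.05 was called. Lists are described by counts and medians beside those of all genes. The fit was first tested on simulated data.

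Alternatives were a pseudocount of 0.1, no filter, quantile scaling, the replicate number as a block, only libraries of the same set, the data set letter as a term (c comparisons), and each library left out in turn. Same-numbered libraries deviated together in every pair (r over 0.1) for gWT day 3 against day 0 (r = 0.347, 0.186 and 0.142) and gKO against gWT at day 3 (r = 0.126, 0.115 and 0.222). This is at most a possible sign of pairing, which the labels do not state. In other comparisons r reached -0.466 and 0.47, so these values lie within the spread of all. Named in the text are the 12 members with the highest group mean, up to 4 called rises and 4 called falls per comparison, and members said to be chosen otherwise. Hist4h4, Hist1h1a, Hist1h1t, Hist1h2ac and Hist1h2bn were named after their values were seen. GENCODE M21 (GRCm38) gave 3′ ends, coding sequences and head-to-head neighbours by gene name, and RefSeq GRCm38.p6 gave promoters; neither was joined to the mm9 values by coordinates. Python 3.11.15, pandas 2.3.3, numpy 2.4.6 and matplotlib 3.10.9 were used.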

Additional observations from a re-analysis of the deposited data

Results flagged for a closer look

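By the limma interaction test 16 members moved more upward and 5 more downward in gKO than in gWT from day 0 to day 3. Of all genes 32.4% and 49.5% did. The changes of the 4 members with the largest difference in each direction were flagged. They differed upward in gKO for Hist2h2aa1 (4.1 ± 0.18, limma adjusted p = 9.5e-19), Hist1h2bc (3.92 ± 0.15, limma adjusted p = 6.58e-20), Hist3h2a (3.37 ± 0.13, limma adjusted p = 6.12e-20) and Hist1h1c (3.12 ± 0.13, limma adjusted p = 8.89e-19). They differed downward for Hist1h2ap (-3.83 ± 0.54, limma adjusted p = 3.02e-07), Hist1h2ao (-3.26 ± 0.35, limma adjusted p = 1.48e-09), Hist1h2ag (-2.24 ± 0.41, limma adjusted p = 1.38e-05) and Hist1h3c (-1.25 ± 0.35, limma adjusted p = 0.00171). Values are log2 differences ± SE. In gWT BMMs and preOCs Hist3h2a averaged 44.5 and 17.8 RPKM and in gKO 4.33 and 21.5, so that it fell in one and rose in the other.

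From day 3 to day 6 the differences flagged in the same way were upward for Hist1h2ao (2.01 ± 0.35, limma adjusted p = 8.62e-06), Hist1h2ap (1.56 ± 0.54, limma adjusted p = 0.0116), Hist1h2ag (1.33 ± 0.41, limma adjusted p = 0.00483) and Hist1h3c (1.01 ± 0.35, limma adjusted p = 0.0103). For Hist1h2ap the value was 1.11 without gKO OC replicate 2 (adjusted p = 0.0595). They were downward for Hist2h2be (-2.86 ± 0.10, limma adjusted p = 4.04e-20), Hist1h4h (-2.6 ± 0.17, limma adjusted p = 2.44e-14), Hist2h2aa1 (-2.34 ± 0.18, limma adjusted p = 1.04e-12) and Hist1h2bc (-2.05 ± 0.15, limma adjusted p = 5.92e-13). Both steps share the day 3 libraries, so the pairs of values are not independent.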

How the results depend on the processing

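Alternatives were run on the counts of called members and on 119 named changes. Of 195 counts of called members recomputed, 189 stayed within 1.5 times the main count and 6 did not. With the data set letter as a term, which 1 library sets, the count was 12 for cKO day 6 against day 3 (26 in the fit without it), 8 for cKO against cWT at day 0 (17) and 9 at day 6 (14). Without the filter on low values it was 32 for the interaction from day 0 to day 3 (21). Leaving out 1 library at a time gave 6 to 11 for gKO day 6 against day 3 (10, lowest without gKO day 3 replicate 2) and 9 to 17 for cKO against cWT at day 6 (14, lowest without cKO day 6 replicate 2). The cause was not tested. With the replicate block, which treats same-numbered libraries as belonging together, 14 members were called for gWT day 3 against day 0 (14 without it) and 23 for gKO against gWT at day 3 (23). The block moved no other count beyond 1.5 times and ended 1 call among the named members, Hist1h2ao in cWT day 3 against day 0 (adjusted p = 0.0508). Over the named changes under 1449 settings, 1380 kept direction and call, 69 missed the threshold and 0 reversed, the 69 in 22 changes. Settings in which a member no longer met the filter are not among these, so such losses are not counted. For Hist1h1b in gKO day 6 against day 3, only 3 left-out libraries gave a value. The same held for Hist1h2ba in cKO day 6 against day 3 and in cKO against cWT at day 6. Quantile scaling moved the median over all genes from 0.13 to 0.02 for gWT day 3 against day 0, from -0.23 to -0.10 for gKO and from -0.22 to 0.03 for their interaction.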
